A study of Homo sapiens with 12 samples.

Results

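The major heterogeneous nuclear ribonucleoproteins (hnRNPs) described here are 10 genes, HNRNPA1, HNRNPA2B1, HNRNPA3, HNRNPC, HNRNPD, HNRNPF, HNRNPH1, HNRNPK, HNRNPM and HNRNPU. They were chosen by symbol, as the abundant proteins that coat nuclear transcripts, out of the 20212 protein-coding genes of the count table. No measured value was part of that rule, although earlier results of these data were known when it was set. All 10 passed the filter on low counts.

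hnRNPs bind nascent RNA through RNA recognition motifs, KH domains or RGG repeats, and they act in splice site choice, 3′ end formation, mRNA export and mRNA stability. Many of them shuttle between nucleus and cytoplasm, where some also act on the translation or decay of other mRNAs. mTORC1, the kinase complex that rapamycin inhibits, promotes translation most strongly for mRNAs that start with a 5′ terminal oligopyrimidine (TOP) tract, a group best known for ribosomal proteins and translation factors.

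PANC-1, an established human pancreatic ductal carcinoma line, was treated with DMSO, the solvent control, or with 50 nM rapamycin for 60 min. Each treatment had 3 cultures of this 1 line, and each culture gave 1 library of ribosome-protected fragments (RF) and 1 library of total RNA, so that translational efficiency (TE) could be taken as RF over total RNA. No allele or agent beyond these was named, and nothing stated whether the cultures were grown on separate days, so p-values measure the spread between these cultures, which may be technical. In all 6 total RNA libraries the duct keratins KRT8, KRT18 and KRT19 were between 1326 and 1765 FPKM, KRT7 was between 9.83 and 12.02 FPKM and EPCAM was between 4.58 and 5.03 FPKM, while the 6 acinar, endocrine and leukocyte markers with a row in the table did not exceed 0.272 FPKM.

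Counts on genes summed to between 278835 and 1574723 per RF library and between 78081241 and 94293744 per total RNA library. The members held between 42 and 1570 counts in a single RF library, and between 5013 and 74266 in a total RNA library. A count of 42 has an exact 95% Poisson interval of 30.3 to 56.8, which covers counting error only. The libraries of rapamycin replicate 2 and of DMSO replicates 1 and 2 stood apart in total RNA. Over the 10420 genes with a mean of at least 5 CPM, the log2 level in rapamycin replicate 2 differed from that in the other libraries of its group with an SD of 0.139, against 0.0694 to 0.0904 in the other 5 total RNA libraries. The DMSO libraries 1 and 2 had a count on 16840 and 16858 genes, against 19751 to 19847 in the other 4.

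Because only reads that aligned to 1 place in the genome were counted, the coding sequence of each member was searched for windows of 28 bases, near the length of a footprint, that have no exact copy elsewhere in GRCh37 on either strand. HNRNPA2B1, an A/B type hnRNP that recognises UAG-containing sequence, had such a unique start at all 996 of its windows. HNRNPM, HNRNPF, HNRNPU, HNRNPD and HNRNPH1 had unique windows at 99.6%, 98.4%, 95.1%, 85.5% and 83.9% of positions. In HNRNPK, which binds C-rich RNA through KH domains, the share was 29.8%, and in HNRNPC, which binds uridine tracts, it was 15.8%. HNRNPA1 and HNRNPA3, both A/B type proteins with paired RNA recognition motifs, had the smallest shares, at 9.55% (104 of 1089 windows) and 2.53% (28 of 1107 windows). Windows of HNRNPA1 recurred at 83 other loci, of which 78 are annotated as pseudogenes, and those of HNRNPA3 at 18 loci, all of them pseudogenes.

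**Figure D1:**
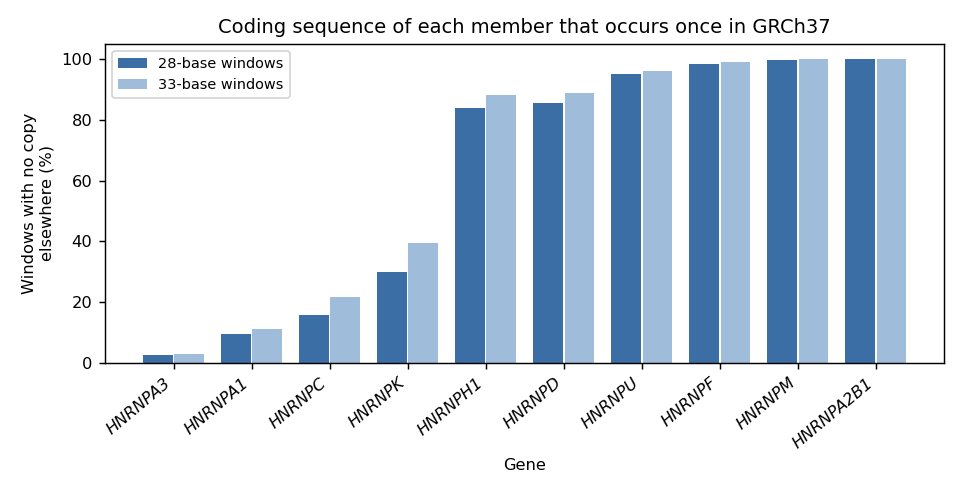
Share of the windows of each member's coding sequence that have no exact copy elsewhere in GRCh37, in percent, for windows of 28 bases (dark bars) and 33 bases (light bars). HNRNPA3, HNRNPA1, HNRNPC and HNRNPK lie between 2.53% and 29.8% at 28 bases, while the other members lie at 83.9% or above.

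The most copied window of HNRNPA3, HNRNPC and HNRNPK is printed to show what a footprint from a shared stretch looks like, 5′ to 3′ on the coding strand in GRCh37. All letters are in lower case because the whole window is shared. It lies at chr2:178082533-178082560 (plus strand) in HNRNPA3, at chr14:21679431-21679458 (minus strand) in HNRNPC and at chr9:86592632-86592659 (minus strand) in HNRNPK.
HNRNPA3: aggatatgatggttacaatgaaggagga
HNRNPC: tgatcaaggatgatgaaaaagaggctga
HNRNPK: aaagatctagaaacactgatgagatggt
These windows had 9, 7 and 4 further copies in the genome, in that order. A footprint that holds exactly these letters cannot be assigned to 1 gene, so the RF counts of such genes rest on the part of their mRNA that differs from its copies. No such share was computed for the total RNA read pairs, and the part of it in the values below was not tested.

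The first bases of the mRNAs were read because TOP tracts mark the best known mTORC1-dependent mRNAs. The TOP motif was sought as C followed by at least 4 letters that are each C or T, on the transcribed strand, at the annotated start of each gene's leading isoform, the one of highest mean FPKM. Of the members, 2 of 10 (20%) matched, HNRNPA1 and HNRNPA3, against 4.03% of 13058 tested genes and 47.6% of 82 cytosolic ribosomal protein genes. The starts of these 2 and, for contrast, of HNRNPA2B1 and HNRNPK follow, with the unbroken run of C and T from the first base in capitals.
HNRNPA1: CTTTCTgcccgtggacgccgccga
HNRNPA3: CTCTCggtcccatattgaactcga
HNRNPA2B1: Caaactgcgcgaccgtttctcacc
HNRNPK: agggcgctccaggcgacagcactg
For HNRNPA1 the isoform read is annotated as a target of nonsense-mediated decay, and 1 of its 50 annotated coding isoforms starts with the motif, as do 2 of 11 for HNRNPA3. When a match at any coding isoform was allowed, HNRNPH1 joined them with 1 of 20 isoforms, which gave 3 of 10 members (30%) against 12.4% of the tested genes. A match describes the letters at an annotated start, and where transcription starts in PANC-1 cells was not measured.

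Levels between genes are given per length. On the scale of RF CPM (counts scaled to TMM-adjusted library sizes) per kilobase of coding sequence, HNRNPA2B1 (ENSG00000122566, chr7:26210771-26241149, minus strand) was highest, with 948 ± 89.0 in DMSO and 1049 ± 76.9 in rapamycin (SD, n = 3). Its lowest library, at 866, lay above the highest library of HNRNPA1, the next member, at 385. HNRNPA1, HNRNPC and HNRNPK followed with means over the 6 cultures of 299, 292 and 289, and HNRNPF, HNRNPU, HNRNPH1, HNRNPD, HNRNPM and HNRNPA3 ranged from 260 down to 136. Each of these overlapped its neighbour in the order. All 28-base windows of HNRNPA2B1 were unique, against 9.55%, 15.8% and 29.8% in HNRNPA1, HNRNPC and HNRNPK. HNRNPF, HNRNPU, HNRNPH1, HNRNPD and HNRNPM, lower in the order, had 83.9% or more, and HNRNPA3 had 2.53%. The counts were divided by the full coding length, and the part of shared sequence in the order was not tested. The place of HNRNPA2B1 depended on the length used. Per kilobase of all annotated exons, HNRNPF led with a mean of 99.0 and HNRNPA2B1 followed with 81.0, and their ranges did not overlap.

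The order in total RNA, in the FPKM of the authors, was another. HNRNPC and HNRNPH1 were highest with means of 401 and 373 FPKM, and their ranges overlapped. HNRNPK followed with 291 FPKM, and then HNRNPF with 234, HNRNPA2B1 with 215, HNRNPA1 with 202 and HNRNPU with 183, of which each overlapped the next. HNRNPM with 63.8, HNRNPD with 36.7 and HNRNPA3 with 17.6 FPKM were each set apart from the member above, so the 2 members with the least RNA were HNRNPA3 and HNRNPD.

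**Figure D2:**
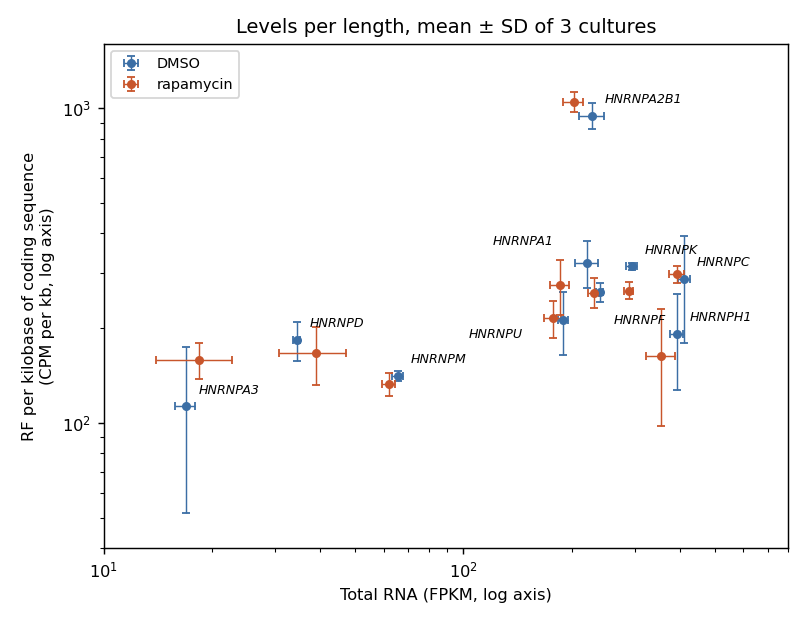
RF per kilobase of coding sequence (CPM per kb, log axis) against total RNA (FPKM, log axis) of each member, as means of 3 cultures with SD bars, DMSO in blue and rapamycin in orange. HNRNPA2B1 stands above all other members in RF at 948 in DMSO, whereas its total RNA of 227 FPKM lies within the range of the others. The share of unique windows, which differs between members, was not taken into account.

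The log2 ratio of RF per coding kilobase to FPKM is a description of levels, whose zero has no meaning of its own. HNRNPA3 (2.85), HNRNPD (2.25) and HNRNPA2B1 (2.22) had the highest means over the 6 cultures, with overlapping ranges, and the lowest library of HNRNPA2B1, at 1.80, lay above the highest of HNRNPM, at 1.19. HNRNPC (-0.49) and HNRNPH1 (-1.13) were lowest. HNRNPA3 was highest although 2.53% of its windows were unique, and 53.6% of its annotated exon bases also lie in exons of NFE2L2 on the opposite strand. For HNRNPH1, 70.4% ± 3.13 (SD, n = 3) of the summed isoform FPKM in DMSO sat on isoforms annotated as retaining an intron, which hold no coding sequence. The part of shared sequence, overlapping exons and isoform type in this order was not tested, and whether the authors' counting used strand is not given in the sources used here.

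TE is the quantity the study was designed to compare, since rapamycin inhibits mTORC1-dependent translation. No member was called as changed in TE, and the TE groups overlapped in every member except HNRNPK. edgeR's quasi-likelihood test called 0 of 10 at an adjusted p under 0.05 and 0 of 10 at an unadjusted p under 0.05. Over all 13329 genes tested, 0% passed the adjusted and 12.6% the unadjusted threshold. DESeq2's Wald test and limma voom also called 0 of 10, while DESeq2 called 1236 genes in all. The members' log2 fold changes in TE ran from -0.29 to 0.31, of which 5 were negative and 5 positive, with a median of 0.01 against -0.06 over all genes tested. That median moved with single cultures, to 0.21 without DMSO replicate 3 and to 0.12 without rapamycin replicate 3, with 8 members positive in each case, and to between -0.08 and -0.06 without DMSO replicate 1, DMSO replicate 2 or rapamycin replicate 1, with 7 members negative in each case. edgeR's 95% intervals of the fold change ran from 0.946 to 1.49 for HNRNPA2B1 and from 0.631 to 2.43 for HNRNPA3, where they were widest. These intervals depend on the method, since limma voom gave the log2 fold change in TE a standard error of 0.33 for HNRNPA2B1 and 0.43 for HNRNPK, against 0.15 for each in edgeR. On simulated counts edgeR's TE and RF tests called unchanged genes more often than their threshold allows, so these p-values may be too small and the intervals too narrow. Both tests also missed most of the genes that were given a change there. Those genes were drawn at random from all tested genes, whatever their depth, so that miss rate does not describe the members. The members' own TE and RF intervals allow changes in either direction, so 0 of 10 members called does not show an absence of change.

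**Figure D3:**
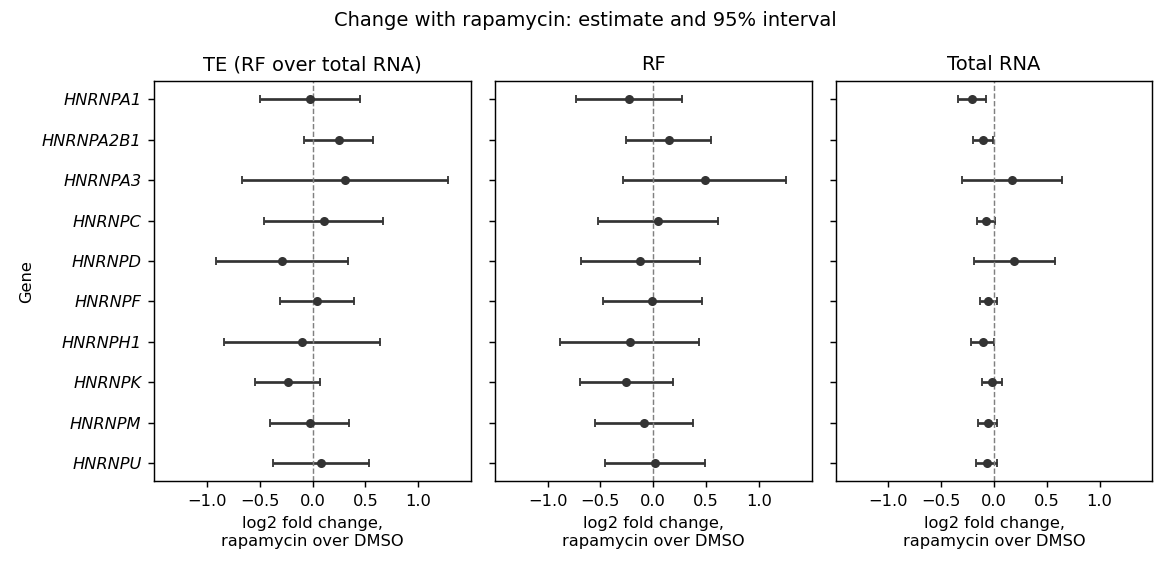
Fitted log2 fold change with rapamycin (points) and 95% interval (bars) of each member in TE, RF and total RNA, from edgeR's quasi-likelihood fits over 13329 genes. All TE and RF intervals include 0, and in total RNA those of HNRNPA1 and HNRNPA2B1 lie below 0.

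HNRNPK (ENSG00000165119, chr9:86582998-86595546, minus strand) was the 1 member whose TE groups did not overlap. Its log2 TE (log2 CPM of RF minus log2 CPM of total RNA) was -0.70, -0.90 and -0.84 in DMSO replicates 1, 2 and 3, and -1.17, -0.94 and -1.03 in rapamycin. All 3 rapamycin cultures were below the DMSO cultures, although rapamycin replicate 2 and DMSO replicate 2 lay close together. The fold change was 0.849 with a 95% interval of 0.684 to 1.05 (edgeR, adjusted p = 0.528), and the two-sided exact permutation test of 3 against 3 cultures gave p = 0.1, which is the smallest p it can give. Groups were separated with lower TE in rapamycin for 6.19% of all genes tested, so 1 of 10 members is near that share.

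The same separation was seen in the footprints of HNRNPK. RF was 449, 426 and 437 CPM in the DMSO cultures and 341, 380 and 379 CPM in the rapamycin cultures, each culture with rapamycin below each with DMSO. The fold change in RF was 0.838 with a 95% interval of 0.617 to 1.14 (edgeR, adjusted p = 0.9999). Across all genes tested, 4.21% were separated with lower RF in rapamycin. Total RNA of HNRNPK was 732 to 800 CPM in DMSO and 735 to 778 CPM in rapamycin, so the groups overlapped, and its fold change was 0.987 (95% interval 0.926 to 1.05). Leaving out each culture in turn kept the log2 fold change in TE between -0.29 and -0.18.

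HNRNPA2B1 had the opposite sign, with a higher mean in footprints and a lower mean in total RNA. RF was 886, 956 and 1067 CPM in DMSO and 1113, 983 and 1124 CPM in rapamycin, and DMSO replicate 3 lay within the rapamycin range. Its total RNA was 682, 620 and 615 CPM in DMSO and 602, 578 and 605 CPM in rapamycin, which did not overlap. The log2 TE of 0.60 ± 0.21 in DMSO and 0.85 ± 0.07 in rapamycin (SD, n = 3) overlapped through DMSO replicate 3 at 0.80. The fold change in TE was 1.19 with a 95% interval of 0.946 to 1.49 (edgeR, adjusted p = 0.529). In HNRNPA2B1, 12.5% of annotated exon bases lie in exons of NFE2L3 or CBX3 on the opposite strand, and the part of those genes in its counts was not tested.

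The TE of both A/B type members with a TOP motif overlapped between treatments. In HNRNPA1 (ENSG00000135486, chr12:54673977-54680872, plus strand), which represses splice sites and shuttles to the cytoplasm, log2 TE was -0.32, -0.25 and 0.30 in DMSO and -0.01, 0.14 and -0.50 in rapamycin. The groups overlapped over most of their range, and the fold change was 0.985 (95% interval 0.708 to 1.37). In HNRNPA3 (ENSG00000170144, chr2:178077422-178088687, plus strand), an A/B type protein linked to mRNA trafficking, RF was 135, 55.3 and 194 CPM in DMSO and 207, 163 and 170 CPM in rapamycin. DMSO replicate 2, with 44 counts, was the low value. The log2 fold change in TE of HNRNPA3 was 0.31, and it was -0.090 when that culture was left out.

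HNRNPD (ENSG00000138668, chr4:83273651-83295656, minus strand), also called AUF1, binds AU-rich elements that mark mRNAs for decay, and it had the lowest fitted TE change of the members. Its log2 TE was 1.93, 1.77 and 1.47 in DMSO and 1.61, 1.33 and 1.29 in rapamycin, so DMSO replicate 3 and rapamycin replicate 1 overlapped. The fold change was 0.818 with a 95% interval of 0.531 to 1.26. Its footprints were 166 to 221 CPM in DMSO and 140 to 213 CPM in rapamycin. Total RNA was high in rapamycin replicate 2, and without that culture the log2 fold change was -0.24 in TE and -0.27 in RF.

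Footprints of HNRNPC (ENSG00000092199, chr14:21677295-21737653, minus strand) varied widely between the DMSO cultures. Those of HNRNPH1 (ENSG00000169045, chr5:179041179-179061785, minus strand), a G-tract binder in splicing, varied widely between the cultures of each treatment. RF of HNRNPC was 197, 199 and 360 CPM in DMSO and 273, 267 and 243 CPM in rapamycin, where DMSO replicate 3 was the high value. RF of HNRNPH1 was 234, 186 and 357 CPM in DMSO and 319, 196 and 146 CPM in rapamycin, so both treatments spanned a wide and shared range. The fold changes in TE were 1.08 (95% interval 0.729 to 1.59) for HNRNPC and 0.933 (95% interval 0.560 to 1.55) for HNRNPH1, and both depended on single cultures. Without DMSO replicate 3 their log2 fold changes in TE were 0.45 and 0.24, and without DMSO replicate 2 they were -0.05 and -0.29.

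HNRNPF (ENSG00000169813, chr10:43881065-43904634, minus strand), HNRNPM (ENSG00000099783, chr19:8509651-8553998, plus strand) and HNRNPU (ENSG00000153187, chr1:245003940-245027862, minus strand) had fold changes close to 1 in TE and in RF. HNRNPF binds G-tracts as HNRNPH1 does, HNRNPM binds GU-rich RNA, and HNRNPU, also known as scaffold attachment factor A, binds chromatin as well as RNA. Their fold changes in TE were 1.03, 0.981 and 1.06, with 95% intervals that together ran from 0.755 to 1.45. RF of HNRNPF was 308 to 350 CPM in DMSO and 294 to 362 CPM in rapamycin, and that of HNRNPM was 300.4 to 323 and 275 to 318 CPM. RF of HNRNPU was 406 to 642 CPM in DMSO and 479 to 613 CPM in rapamycin. In each of these the groups overlapped. For HNRNPU, 15.6% of annotated exon bases lie in exons of COX20 on the opposite strand. The part of COX20 in the counts of HNRNPU was not tested.

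In footprints alone no member was called either, and HNRNPK was the only member whose RF groups did not overlap. The RF test of edgeR called 0 of 10 members at an adjusted p under 0.05, where it called 0% of all genes, and 0 of 10 at an unadjusted p under 0.05, where it called 3.68%. DESeq2's Wald test called 0 of 10 members and 5 genes in all in RF. Of the members 6 had a negative and 4 a positive log2 fold change in RF, from -0.25 in HNRNPK to 0.49 in HNRNPA3, with a median of -0.05 against 0.02 over all genes. That RF median was 0.06 without DMSO replicate 3 and 0.01 without rapamycin replicate 3, with 6 members positive in each case. It was -0.10 without DMSO replicate 1, -0.11 without DMSO replicate 2 and -0.13 without rapamycin replicate 1, with 7 or 8 members negative, and -0.0094 without rapamycin replicate 2, with 5 of each sign. Summed over the members, the share of an RF library was 0.370%, 0.317% and 0.404% with DMSO, and with rapamycin it was 0.391%, 0.377% and 0.378%, so the treatments overlapped. The biological coefficient of variation over all genes was 54.9% for the RF libraries, 5.31% for total RNA and 24.4% when both were fitted together. For HNRNPK edgeR's standard error of the log2 fold change was 0.15 in TE and 0.21 in RF. In HNRNPA3 it was larger in TE, at 0.45 against 0.37 in RF. It was also larger in TE for HNRNPD and HNRNPH1, and smaller for the other members. The part of the joint fit in these widths was not tested.

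**Figure D4:**
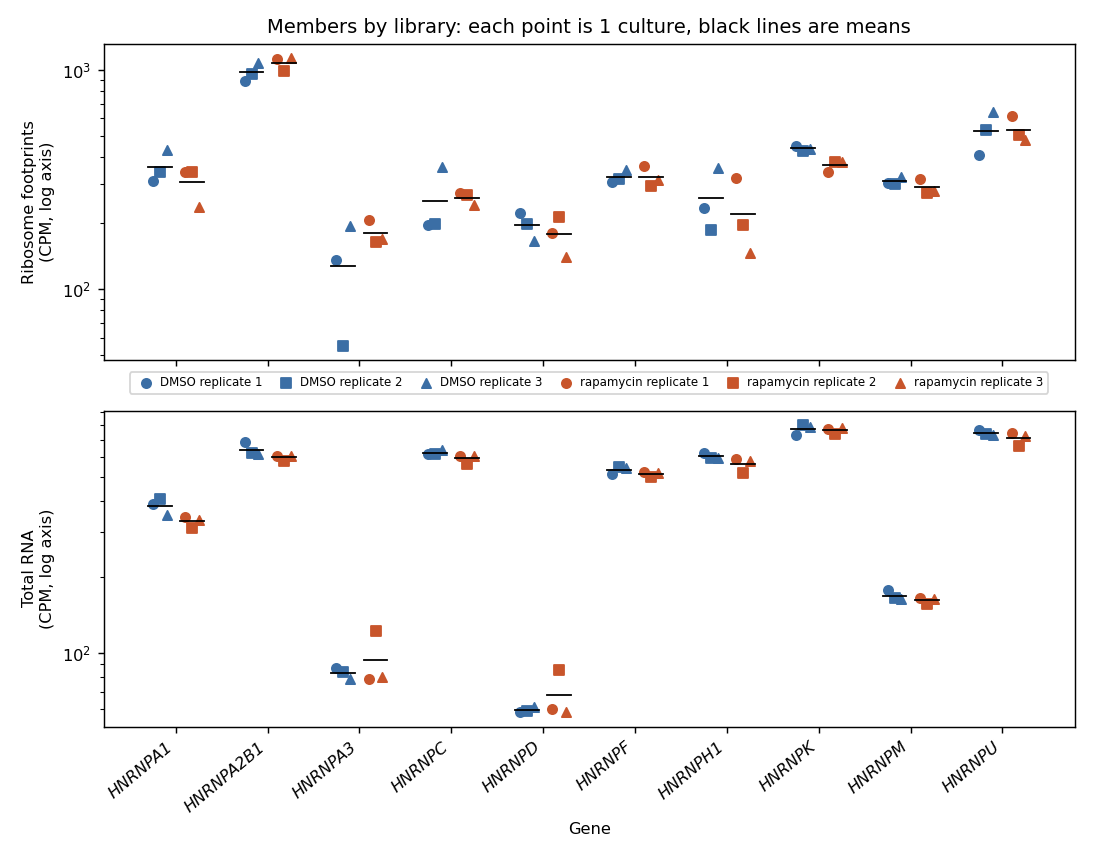
Level of each member in each library, in CPM on a log axis, RF above and total RNA below. Each point is 1 culture (blue DMSO, orange rapamycin, the same marker for the same replicate number) and black lines are means. HNRNPK footprints are lower in all 3 rapamycin cultures (341 to 380 CPM) than in DMSO (426 to 449 CPM), and DMSO replicate 2 is low for HNRNPA3 at 55.3 CPM.

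Most members had a slightly lower mean in total RNA with rapamycin. In bulk samples, fewer cells of a type and less RNA of a gene per cell cannot be told apart. Of the 10 members 8 had a negative log2 fold change, with a median of -0.06 against 0.01 over all genes tested. edgeR called 0 of 10 at an adjusted p under 0.05, where it called 0% of all genes, and DESeq2's Wald test called 0 of 10 and 29 genes in all. At an unadjusted p under 0.05 and lower in rapamycin there were 2 of 10 members, HNRNPA1 and HNRNPA2B1, against 2.51% of all genes. The groups were separated, lower in rapamycin, for 4 of 10 members, HNRNPA1, HNRNPA2B1, HNRNPC and HNRNPH1, against 6.61% of all genes. The members held 0.458%, 0.456% and 0.453% of total RNA counts in DMSO and 0.446%, 0.418% and 0.444% in rapamycin.

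HNRNPA1 had the largest of these differences in total RNA. It was measured at 390, 407 and 350 CPM in DMSO and at 346, 312 and 337 CPM in rapamycin. All rapamycin cultures were lower, but DMSO replicate 3 lay next to rapamycin replicate 1. The fold change was 0.867 with a 95% interval of 0.792 to 0.9497 (edgeR, unadjusted p = 0.0062, adjusted p = 0.766). Without DMSO replicate 3 the adjusted p was 0.0067 (edgeR), in a fit that called 881 genes in all. Without the DMSO libraries 1 and 2, in which fewer genes had a count, the log2 fold change moved from -0.21 to -0.08. The lone DMSO library of that last fit is assumed to vary like the rapamycin libraries. In the same fit 8 of the 10 members stayed negative, and the median over all 10 moved from -0.06 to -0.04.

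The other separated members differed by less. HNRNPA2B1, with the values above, had a fold change of 0.931 in total RNA (95% interval 0.870 to 0.996). HNRNPC was 613, 615 and 638 CPM in DMSO and 604, 560 and 605 CPM in rapamycin. Its fold change was 0.948, with a 95% interval of 0.894 to 1.005 that includes 1. HNRNPH1 was 620, 593 and 594 CPM in DMSO and 585, 514 and 577 CPM in rapamycin. Its fold change was 0.928, with a 95% interval of 0.860 to 1.0004 that also includes 1. In all 3 the nearest cultures of the treatments lay within a few percent, and rapamycin replicate 2 was the lowest library.

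HNRNPA3 and HNRNPD went the other way in total RNA, through 1 library. HNRNPA3 was 87.2, 84.0 and 78.7 CPM in DMSO and 78.8, 122 and 80.4 CPM in rapamycin. HNRNPD was 58.6, 58.9 and 60.8 CPM in DMSO and 59.7, 85.7 and 58.2 CPM in rapamycin. Rapamycin replicate 2 was the highest library for both, and it was the lowest of the 3 rapamycin libraries for the other 8 members. Without that culture the log2 fold changes in total RNA moved from 0.17 to -0.07 in HNRNPA3 and from 0.19 to -0.01 in HNRNPD. Then 9 of 10 members were negative, with a median of -0.04, and the same 4 members were separated, where 11.3% of all genes were. The part of that library's difference in the members' values was not tested.

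**Figure D5:**
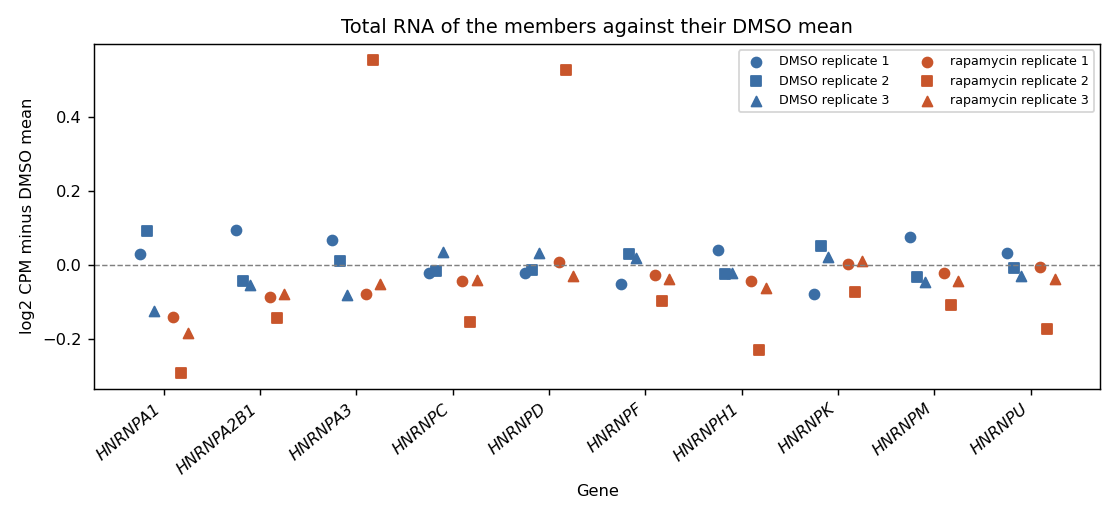
Total RNA of each member in each library as log2 CPM minus the mean of its 3 DMSO libraries (blue DMSO, orange rapamycin, the same marker for the same replicate number). Rapamycin replicate 2 is the highest library for HNRNPA3 and HNRNPD and the lowest of the rapamycin libraries for the other 8 members, and DMSO replicate 3 of HNRNPA1 is next to rapamycin replicate 1.

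Counts for other RNA-binding families in total RNA are given beside the 6.61% of all genes that were separated with lower values in rapamycin, and no difference between lists was tested. Of a list of 20 further hnRNP genes 16 were lower and 1 was separated in that direction, with a median log2 fold change of -0.03. Of 13 tested SR splicing factors 12 were lower and 6 were separated, with a median of -0.05, and of 84 tested cytosolic ribosomal proteins 75 were lower and 15 were separated, with a median of -0.04. Over all genes 6244 of 13329 were lower. In TE, 13 of the 20 further hnRNP genes were higher in rapamycin with a median of 0.05, 8 of 13 SR factors were higher with a median of 0.03, and 49 of 84 ribosomal proteins were lower with a median of -0.08. None of the genes on these lists was called by edgeR at an adjusted p under 0.05.

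Of the 20 further hnRNP genes, 1 had an unadjusted p under 0.05 in TE, where 12.6% of all genes did, 0 had one in RF, where 3.68% did, and 2 had one in total RNA, where 334 genes of 13329 did with lower and 442 with higher values. HNRNPAB, an A/B type protein, had a log2 TE of 0.03 ± 0.15 in DMSO and 0.50 ± 0.19 in rapamycin (SD, n = 3), which did not overlap, as in 640 of 13329 genes with higher TE in rapamycin, and a fold change of 1.40 with a 95% interval of 1.02 to 1.94 (edgeR, adjusted p = 0.375). PCBP1, a C-rich binder related to HNRNPK, had a fold change of 1.11 in total RNA (95% interval 1.01 to 1.22). TARDBP, which encodes TDP-43, had a fold change of 0.937 in total RNA (95% interval 0.881 to 0.996). For both the adjusted p was 0.766.

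In isoform FPKM, the leading isoform of HNRNPH1, annotated as retaining an intron, held 10.4% ± 0.24 of the gene's FPKM in DMSO and 11.8% ± 1.06 in rapamycin (SD, n = 3), and its groups did not overlap. The difference was 1.44 percentage points in FPKM and 0.61 points in normalized counts of isoforms. The leading isoforms of the other 9 members overlapped between treatments, and 10.3% of 9747 genes were separated in either direction.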

How the data were processed

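RF and total RNA of PANC-1 cells were sequenced from 3 cultures given DMSO and 3 given rapamycin. Samples were grouped from their labels. The members and the comparison lists were chosen with earlier results of these data known. All members were to be named, and of the further hnRNP list those with an unadjusted p under 0.05 in TE, RF or total RNA.

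The authors deposited raw counts, made by quality filtering and linker trimming of RF reads, removal of ribosomal RNA, HISAT2 alignment to GRCh37 and featureCounts on exons of protein-coding genes, with uniquely aligned reads only. For total RNA the authors deposited gene and isoform tables in FPKM, made with Cufflinks 2.2.1 and cuffnorm. They also deposited a normalized signal, fragment counts divided by the cuffnorm size factor. The columns of the authors' own comparison (p-values, adjusted p-values, a log2 fold change and a TE ratio per treatment), deposited beside the counts, were not used. Versions of HISAT2 and featureCounts are not given in the sources used here.

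Software was edgeR 4.0.16, DESeq2 1.42.0 and limma 3.58.1 under R 4.3.3, with pandas 2.3.3 under Python 3.11.15. TMM factors were taken separately for RF and for RNA libraries, and genes with at least 10 counts summed over each library type were tested. The TE change was the interaction term between treatment and kind of library, tested by edgeR's quasi-likelihood method, and p-values were adjusted by Benjamini-Hochberg over all genes tested. CPM in the text are TMM-scaled. A prior count of 2 entered the TE of single cultures. The 95% limit that a count of 0 allows, 3 counts, was at most 10.8 CPM in an RF library. The fits were tested on simulated counts with known changes, where they gave nearly all changed genes the right sign. The TE and RF tests there called more unchanged genes than an adjusted p under 0.05 allows, and the RNA test about as many as it allows. At that threshold the TE and RF tests missed most of the changed genes, while the RNA test found most of them. Positions, coding lengths and sequences come from the GRCh37 genome and a GENCODE annotation of that build, whose version differs from the authors'. Coding length was that of the representative isoform, and the window search covered exact copies on both strands. The most copied window of HNRNPA1 is not reported here. Shares of isoforms used FPKM. Alternatives were DESeq2's size factors and Wald test, limma voom, TMM over all libraries, other filters on counts, replicate and culture blocks, leaving out each culture, and limma-trend on the normalized signal or on log2(FPKM + 1), the latter also without a minimum FPKM and with 0.1 as pseudocount. Leaving out the DMSO RNA libraries 1 and 2 and the separation without rapamycin replicate 2 were chosen after seeing the data, as was the grouping of isoforms by annotated type.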

Additional observations from a re-analysis of the deposited data

How the results depend on the processing

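RF depth and spread limited the TE and RF intervals, and single cultures decided several values. All alternatives called 0 of 10 members in TE and in RF; in total RNA all called 0 except leaving out DMSO replicate 3 (range 0 to 1 over the cultures left out), which called HNRNPA1 at a log2 fold change of -0.27. Of 230 single-gene values under the settings that keep all cultures or leave out DMSO RNA libraries 1 and 2, 227 kept direction and side of the threshold. The reversed ones were TE of HNRNPA1 (0.0065) and HNRNPM (0.00070) with no count filter and TE of HNRNPF (-0.031) with TMM over all libraries. The causes were not tested.

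The count of genes called in TE was 1236 with DESeq2's Wald test and 0 to 444 when a culture was left out, 444 without DMSO replicate 3 and 5 without rapamycin replicate 1. In RF it was 5 with DESeq2's Wald test, 20 with no count filter and 0 to 6 when a culture was left out. In total RNA it was 29 with DESeq2's Wald test, 0 to 881 when a culture was left out, with 881 without DMSO replicate 3, and by limma-trend 5 on the normalized signal and 3 on log2(FPKM + 1), which became 4 when 0.1 was added and 5 without a minimum FPKM.

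When cultures were left out, log2 fold changes that changed sign ranged in TE from -0.14 to 0.18 (HNRNPA1), -0.090 to 0.90 (HNRNPA3), -0.052 to 0.45 (HNRNPC), -0.049 to 0.092 (HNRNPF), -0.45 to 0.24 (HNRNPH1), -0.094 to 0.017 (HNRNPM) and -0.081 to 0.25 (HNRNPU). In RF they ranged from -0.12 to 0.39 (HNRNPC), -0.27 to 0.014 (HNRNPD), -0.12 to 0.057 (HNRNPF), -0.61 to 0.078 (HNRNPH1) and -0.14 to 0.17 (HNRNPU), and in total RNA from -0.067 to 0.28 (HNRNPA3), -0.011 to 0.29 (HNRNPD) and -0.056 to 0.0053 (HNRNPK).

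Samples with the same replicate number did not deviate together (r across genes from -0.22 to -0.06). By the same measure RF and total RNA of 1 culture, which are paired, gave r from -0.096 to 0.0081. The measure did not detect that pairing, so it cannot decide whether the replicate numbers pair the samples. With the replicate block the counts of genes called were 1 in TE, 6 in RF and 0 in total RNA, and no member was called. The log2 ratio of HNRNPA2B1 to the median of the other members in RF was 2.18 per kilobase of coding sequence and 1.18 per kilobase of exon union. The median share of unique windows over the members was 84.7% at 28 bases and 88.5% at 33 bases.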

Other observations

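The search for repeated windows was also run on the further hnRNP genes. RBMX, an X-linked hnRNP also called hnRNP G, had unique windows of 28 bases at 14.3% of positions, and SYNCRIP, HNRNPL, TARDBP and PCBP2 had them at 54.4%, 59.2%, 63.4% and 65.5%. These genes were named after their values were seen. In total RNA of rapamycin replicate 2, PCBP2 was at 367 CPM against 245 to 268 CPM in the other 5 libraries, so it was high in that library as HNRNPA3 and HNRNPD were.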
